A study of Mus musculus with 7 samples.

Results

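The matrix metalloproteinases described here are 10 mouse genes, Mmp2, Mmp3, Mmp11, Mmp12, Mmp13, Mmp14, Mmp15, Mmp16, Mmp19 and Mmp23, of 44818 features measured by RNA sequencing in 7 libraries of hindlimb tendon. They were chosen by symbol, after the estimated counts of their transcripts had been summed per gene and compared between the 3 groups of the study. Their differences between groups are therefore given as a description, with no p-value. Where the members called by the fit over all genes are counted, the count rests on the comparison that chose them and is no independent evidence. The study concerned the kinase TAK1 and heterotopic ossification, in which bone and cartilage form outside the skeleton after injury. All animals were of a C57BL/6 background, and the labels give neither age nor sex. The injured mice received a partial-thickness scald burn of the back together with transection of 1 Achilles tendon, and an analgesic, buprenorphine. The tenotomy group (n = 2) was tissue taken where the tendon had been transected, 3 weeks after injury. The contralateral group (n = 3) was the uncut tendon of the opposite hindlimb at the same time, so it came from animals that carried the burn and the tenotomy too. The uninjured group (n = 2) was tendon of wild-type mice that had neither. The labels do not say whether libraries of a group came from separate mice, nor which limbs came from the same mouse, so spread and p-values refer only to these samples.

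Matrix metalloproteinases are zinc-dependent proteases that are made as inactive proenzymes and cut collagens, proteoglycans and other proteins of the extracellular matrix. Most are secreted, while the membrane-type members are anchored at the cell surface, and tissue inhibitors of metalloproteinases (TIMPs) block their active site. In tendon and growing bone they are known for removing collagen and cartilage matrix during repair and remodelling.

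Libraries held 25927171 to 36725106 estimated counts, of which 76.41 to 81.4% lay on the 5 features with the most counts, leaving 4934057 to 8375626 for all others. The uninjured libraries were unlike each other, and with replicates 1 and 2 only, it cannot be told which is unlike other uninjured tendon. Over the log2 values of all genes tested, uninjured replicate 1 lay at a distance of 114.0 from uninjured replicate 2. It lay 59.56 and 61.06 from the tenotomy libraries, which lay 54.47 from each other. Uninjured replicate 2 lay 64.47 to 67.37 from the contralateral libraries. The summed level of 8 skeletal muscle markers split the libraries in the same way, at 6680 to 9054 CPM in the contralateral libraries and 6936 in uninjured replicate 2, against 797.2 and 798.4 in the tenotomy libraries and 979.5 in uninjured replicate 1. CPM are estimated counts divided by the scaled library total and brought to a common total. In bulk tissue, fewer cells of a type and less RNA per cell cannot be told apart. Because the labelled uninjured group is split, each comparison with it is given with and without each of its libraries.

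Mmp2 encodes gelatinase A, which cleaves denatured collagen and collagen IV (chromosome 8, 92827291 to 92853420, plus strand; positions are those of GENCODE M21 on GRCm38). Its level was 16.3, 16.7 and 14.0 CPM in contralateral replicates 1 to 3, 117 and 116 CPM in the tenotomy libraries, and 111 and 20.5 CPM in uninjured replicates 1 and 2. The tenotomy libraries were above every contralateral library, with group means of 117 ± 1.24 CPM (SD, n = 2) and 15.7 ± 1.45 CPM (SD, n = 3). The fitted log2 difference of tenotomy minus contralateral was 2.89 (SE 0.57). This SE, like each one below, rests on an estimate of spread over all 7 libraries. It therefore takes in the split of the uninjured group and is not the spread of only the groups compared.

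Mmp14 encodes the first membrane-type enzyme, which cleaves fibrillar collagen at the cell surface and activates the Mmp2 proenzyme (chromosome 14, 54431612 to 54445364, plus strand). It was measured at 2.62, 2.73 and 2.69 CPM in the contralateral libraries, 41.0 and 43.3 CPM in the tenotomy libraries, and 36.5 and 4.23 CPM in the uninjured libraries. Uninjured replicate 1 was again next to the tenotomy libraries and replicate 2 next to the contralateral ones. The log2 difference of tenotomy minus contralateral was 3.97 (SE 0.72), beside the 2.89 of Mmp2, and the difference between these genes was not tested.

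Mmp15 and Mmp16 encode other membrane-type enzymes (chromosome 8, 95352268 to 95375080, plus strand, and chromosome 4, 17852893 to 18119145, plus strand). Mmp15 was measured at 1.99, 2.31 and 2.88 CPM in the contralateral, 2.04 and 2.40 CPM in the tenotomy and 2.73 and 2.86 CPM in the uninjured libraries. Its tenotomy values lay within the contralateral range, and the log2 difference was -0.11 (SE 0.20). Mmp16 was measured at 0.712, 0.598 and 0.464 CPM in the contralateral libraries and at 1.77 and 1.87 CPM in the tenotomy libraries. In the uninjured libraries Mmp16 was at 1.44 and 0.688 CPM. Its groups did not overlap at the tenotomy site and in the contralateral limb, with a log2 difference of 1.62 (SE 0.32). The membrane-type genes thus spanned differences from near 0 (Mmp15) to the 3.97 of Mmp14.

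**Figure D1:**
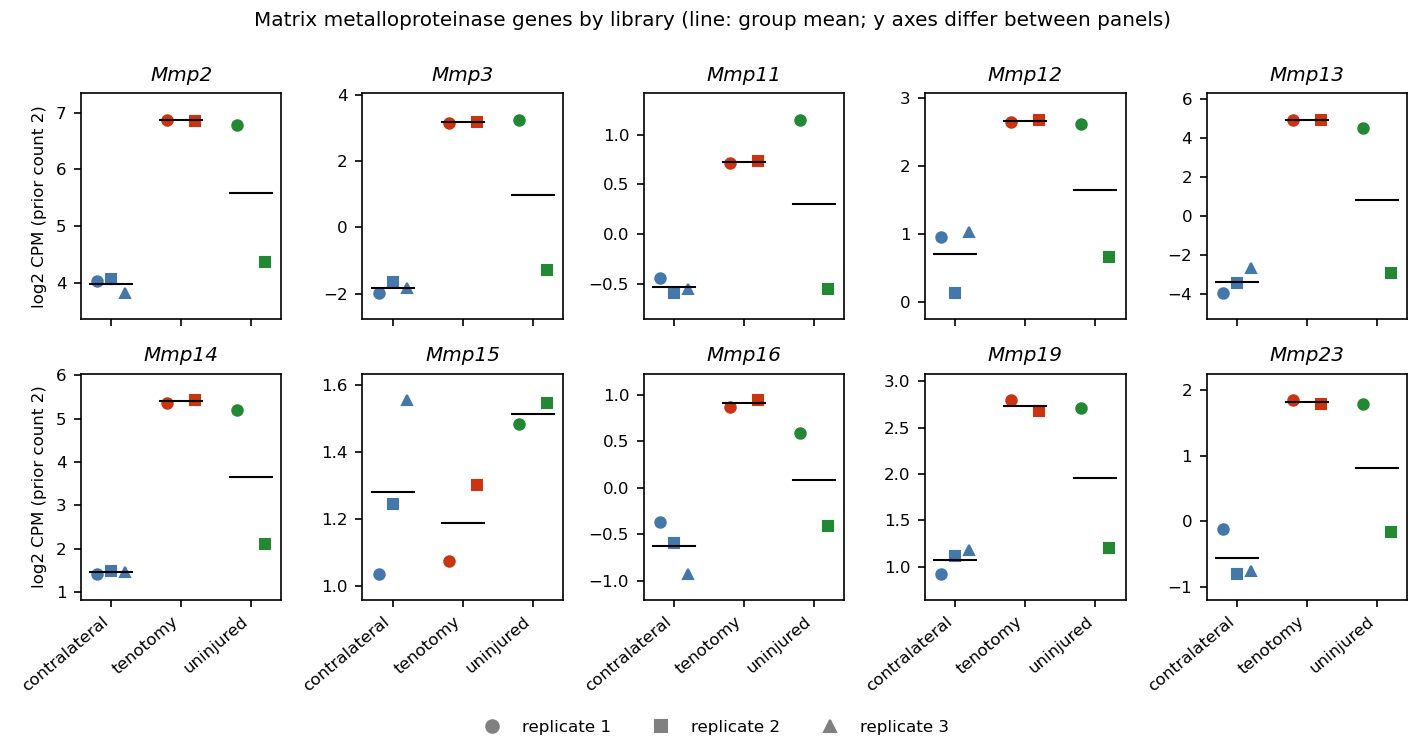
Log2 CPM (prior count 2) of each of the 10 genes on the y axis, with the contralateral, tenotomy and uninjured groups on the x axis, 1 point per library and a line at the group mean; y axes differ between panels. In every panel except that of Mmp15, uninjured replicate 1 lies beside the tenotomy libraries and uninjured replicate 2 beside the contralateral libraries.

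The collagenase Mmp13, the stromelysin Mmp3 and the macrophage elastase Mmp12 lie together on chromosome 9. The cluster holds 10 genes of the family between 7272514 and 7699585, a span of 427 kb. In the order of the chromosome these are Mmp13, Mmp12, Mmp1b, Mmp3, Mmp1a, Mmp10, Mmp8, Mmp27, Mmp20 and Mmp7. Of these 10, the 3 described here were the 3 with enough counts to be tested. Promoter windows of 300 bases (250 before and 50 after the start, RefSeq, GRCm38.p6) were available for 7 of the 10 members and 32851 windows in all. No window was used for Mmp2, Mmp16 and Mmp19. The AP-1 motif TGANTCA, on either strand, was found in 3 of the 7, which were Mmp3, Mmp12 and Mmp13, and in 7.81% of all windows. The same 3 also held TATAAA on either strand, which 13.6% of all windows held, and 1.54% of all windows held both motifs, which share no bases in the stretches below. The stretches of these 3 genes are shown because they are the members whose windows held both motifs. Each runs 5′ to 3′ on the plus strand from 120 bases before the RefSeq start through the first 20 transcribed bases, with the AP-1 and TATA matches in capitals.

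Mmp13, chr9:7272394-7272533: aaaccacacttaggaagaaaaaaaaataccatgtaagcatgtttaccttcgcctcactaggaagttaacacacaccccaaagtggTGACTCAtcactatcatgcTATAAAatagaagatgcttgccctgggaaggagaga
Mmp3, chr9:7445702-7445841: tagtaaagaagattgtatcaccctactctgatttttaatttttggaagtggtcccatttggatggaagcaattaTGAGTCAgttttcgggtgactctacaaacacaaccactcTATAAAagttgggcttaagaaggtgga
Mmp12, chr9:7347254-7347393: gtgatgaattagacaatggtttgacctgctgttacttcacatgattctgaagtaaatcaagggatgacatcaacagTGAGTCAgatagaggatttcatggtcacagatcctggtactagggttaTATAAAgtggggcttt

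The AP-1 match began 35 bases upstream of the start in Mmp13, 44 in Mmp12 and 46 in Mmp3. The TATAAA match began 16 bases upstream in Mmp13 and 7 in Mmp3, and lay 4 bases after the annotated start in Mmp12. The Mmp12 start used here lies inside the GENCODE gene model, which begins at 7344381. The Runx motif TGTGGT, on either strand, was found in Mmp13, Mmp14 and Mmp23 and in 16.8% of all windows. The ETS motif AGGAAG, on either strand, was found in 4 of the 7 members, Mmp3, Mmp12, Mmp13 and Mmp14. It was in 35.4% of all windows. The Mmp12 ETS match lay in another window of that gene, 7344147 to 7344446, without its AP-1 and TATA matches. A member was counted if any of its windows held the motif, while the percentages are of single windows. A match describes letters and was not measured as a binding site.

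Mmp13 cleaves collagens I, II and III and is known from hypertrophic cartilage and bone (chromosome 9, 7272514 to 7283331, plus strand). The contralateral libraries held 0, 1 and 3 counts of it, or 0, 0.0285 and 0.0928 CPM. The tenotomy libraries held 1111 and 933 counts, or 30.2 and 31.1 CPM. Uninjured replicate 1 held 641 counts (23.03 CPM) and replicate 2 held 2 (0.0688 CPM). The pooled tenotomy rate was 721 times the contralateral rate, on 2044 against 4 counts, with an exact 95% interval of 281 to 2647 that covers counting error only. Between the uninjured libraries the ratio was 335 (92.3 to 2769). The fitted log2 difference of tenotomy minus contralateral was 9.37 (SE 1.91) and, with so few contralateral counts, depends on the prior.

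Mmp3 cleaves proteoglycans and fibronectin and activates other proenzymes (chromosome 9, 7445822 to 7455975, plus strand). It held 5, 9 and 7 counts in the contralateral libraries and 324 and 269 in the tenotomy libraries. The uninjured libraries held 263 and 10 counts. In CPM these were 0.187, 0.256 and 0.217, then 8.81 and 8.97, then 9.45 and 0.344. Mmp3, Mmp11 and Mmp15 were the members whose value in uninjured replicate 1 was above both tenotomy libraries. The pooled tenotomy rate was 39.8 times the contralateral one (25.8 to 64.8), and the log2 difference was 5.30 (SE 1.11).

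Mmp12 cleaves elastin and is made mainly by macrophages (chromosome 9, 7344381 to 7369499, plus strand). Over all its transcripts it was measured at 1.87, 1.02 and 1.98 CPM in the contralateral libraries, 6.15 and 6.33 CPM in the tenotomy libraries and 6.07 and 1.51 CPM in the uninjured libraries. The log2 difference of tenotomy minus contralateral was 1.95 (SE 0.51), but the counts fell on different transcripts in the groups. The transcript Mmp12-206, annotated as a retained intron of 4474 bases, held 96.0, 95.5 and 98.4% of the gene's counts in the contralateral libraries. It held 34.0 and 38.6% at the tenotomy site, and 43.7 and 97.8% in the uninjured libraries.

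In CPM, Mmp12-206 was in a narrower range than the gene as a whole, at 1.80, 0.972 and 1.95 in the contralateral, 2.09 and 2.44 in the tenotomy and 2.65 and 1.49 in the uninjured libraries. The other transcripts of Mmp12 were at 0.0753, 0.0453 and 0.0310 CPM in the contralateral libraries against 4.05 and 3.89 CPM at the tenotomy site. In the uninjured libraries they were at 3.41 and 0.0344 CPM. Without the retained-intron transcripts the pooled tenotomy rate was 75.02 times the contralateral rate (31.8 to 233) on 266 against 5 counts, compared with 3.91 times (3.24 to 4.75) on 416 against 150 counts over all transcripts. Of those other counts, Mmp12-204, annotated for nonsense-mediated decay, held 94.3 and 72.3 in the tenotomy libraries and 73.9 in uninjured replicate 1. In the contralateral libraries it held 2.01, 1.09 and 1.00. The ratio without retained-intron transcripts is therefore not one of protein-coding transcripts alone. The setting without retained-intron transcripts was chosen after seeing the data. Part of the Mmp12 exons overlaps Mmp1b on the opposite strand, where Mmp1b had 0 counts in every library, and the labels do not say whether the kit kept the strand.

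**Figure D2:**
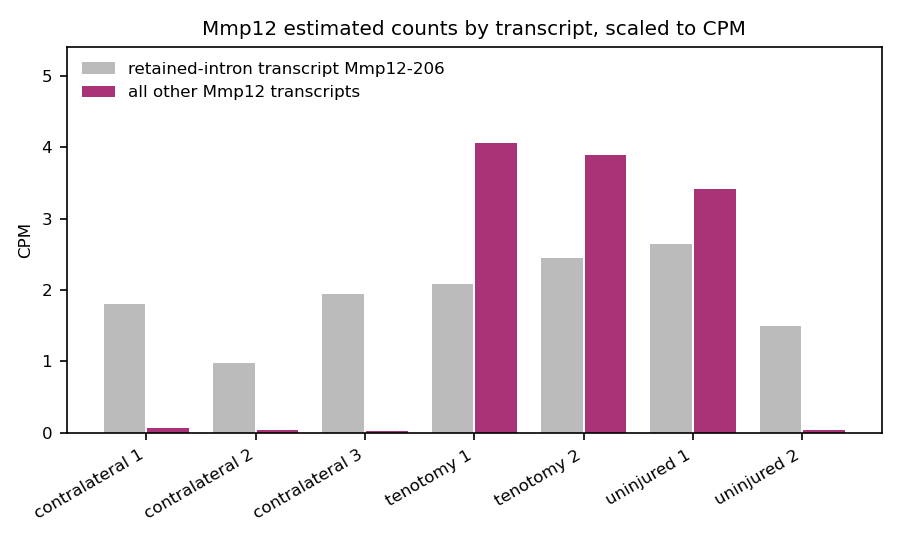
CPM of Mmp12 per library on the y axis, split into the retained-intron transcript Mmp12-206 and all its other transcripts. The retained-intron transcript lies between 0.972 and 2.65 CPM in all 7 libraries, while the other transcripts reach 3.41 to 4.05 CPM in the tenotomy libraries and uninjured replicate 1 and at most 0.0753 CPM elsewhere.

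Mmp11 encodes stromelysin 3, which is activated by furin inside the cell (chromosome 10, 75923222 to 75936496, minus strand). It was at 0.675, 0.598 and 0.619 CPM in the contralateral, 1.58 and 1.60 CPM in the tenotomy and 2.16 and 0.619 CPM in the uninjured libraries. The tenotomy libraries were above the contralateral ones and below uninjured replicate 1, and the log2 difference of tenotomy minus contralateral was 1.33 (SE 0.45). Its exons overlap Chchd10 on the opposite strand.

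Mmp19 cleaves basement membrane proteins (chromosome 10, 128790910 to 128800824, plus strand, with exons that overlap Gm47093 and Tmem198b on the opposite strand). It was at 1.84, 2.11 and 2.20 CPM in the contralateral, 6.91 and 6.33 CPM in the tenotomy and 6.47 and 2.24 CPM in the uninjured libraries. Its tenotomy and contralateral values did not overlap, with a log2 difference of 1.69 (SE 0.37). Mmp23 encodes a membrane protein without the hemopexin domain of most of the family (chromosome 4, 155650655 to 155653384, minus strand). It was at 0.862, 0.512 and 0.526 CPM in the contralateral, 3.54 and 3.37 CPM in the tenotomy and 3.38 and 0.826 CPM in the uninjured libraries. Its tenotomy and contralateral values were likewise apart, with a log2 difference of 2.46 (SE 0.52).

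Counted together, 8 of the 10 members passed the threshold of edgeR's quasi-likelihood fit over 16028 genes (Benjamini-Hochberg adjusted p under 0.05) as higher at the tenotomy site than in the contralateral limb, and 0 as lower. Over all genes tested, 13.6% were called higher, 15.4% lower and 29.0% in either direction. Mmp11 and Mmp15 were not called. In 9 of 10 members every tenotomy library was above every contralateral library, which was so for 31.9% of all genes tested, and in 63.7% the groups did not overlap in either direction. The median log2 difference was 2.21 over the members and 0.00 over all genes. The members were chosen with this comparison known, and Mmp3 and Mmp13, with fewer than 10 counts in every contralateral library, passed the filter on low counts only through the libraries where they were high. When any contralateral or tenotomy library was left out, 0 members and 0 genes were called, while the fitted difference of the 9 members other than Mmp15 stayed above 0. With uninjured replicate 1 or 2 left out, 9 members were called in either case, beside 7308 of 17018 and 7336 of 16877 genes tested.

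**Figure D3:**
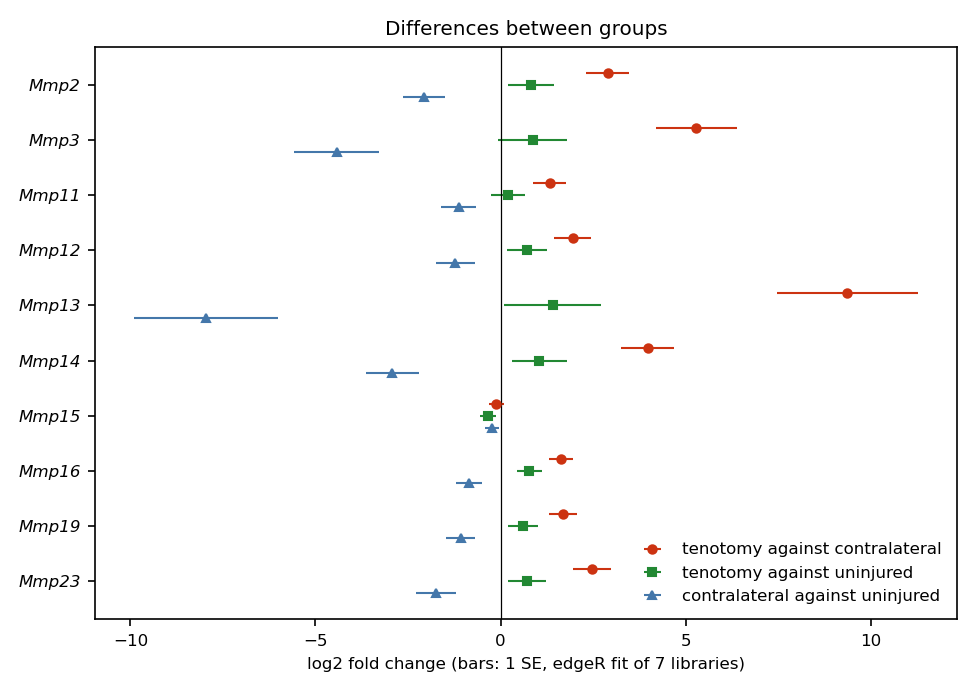
Log2 fold change on the x axis for each of the 10 genes on the y axis in the 3 comparisons. Bars are 1 SE, derived from the F statistic of the edgeR fit of all 7 libraries. Tenotomy against contralateral runs from -0.11 (Mmp15) to 9.37 (Mmp13), and tenotomy against uninjured from -0.34 (Mmp15) to 1.41 (Mmp13).

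The comparison of the tenotomy site with uninjured mice called 0 members and 0.0% of all genes. At an unadjusted p under 0.05 the edgeR test had 1741 genes, and DESeq2 called 145. The fitted log2 difference was 1.41 (SE 1.31) for Mmp13, 1.05 (SE 0.75) for Mmp14, 0.83 (SE 0.62) for Mmp2 and -0.34 (SE 0.21) for Mmp15. The median was 0.75 over the members and -0.01 over all genes. Both tenotomy libraries were above both uninjured ones in 5 members and below them in 1, Mmp15, against 20.1% and 20.4% of all genes tested and 40.5% in either direction. The uninjured group behind these values holds unlike libraries. Without uninjured replicate 1 the difference of tenotomy minus uninjured was 8.72 for Mmp13, 4.68 for Mmp3, 3.32 for Mmp14 and 2.51 for Mmp2, and 9 members were called beside 4275 of 17018 genes tested. Without uninjured replicate 2 it was 0.42 for Mmp13, -0.09 for Mmp3, 0.21 for Mmp14 and 0.08 for Mmp2, and 0 members were called beside 14 of 16877 genes. With an uninjured library left out, that group is a lone library, assumed to vary like the libraries of the other groups, here and in the comparison that follows.

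The comparison of the contralateral limb with uninjured mice also called 0 members and 0.0% of all genes, with 3084 genes at an unadjusted p under 0.05 in the edgeR test and 223 called by DESeq2. It shares libraries with both other comparisons. The fitted difference of contralateral minus uninjured was -7.96 (SE 1.94) for Mmp13, -4.43 (SE 1.14) for Mmp3, -2.92 (SE 0.71) for Mmp14 and -2.06 (SE 0.56) for Mmp2. Without uninjured replicate 1 these became -0.65, -0.62, -0.66 and -0.39, and 0 members were called beside 105 of 17018 genes tested. Without uninjured replicate 2 they became -8.95, -5.38, -3.76 and -2.81, and 9 members were called beside 5393 of 16877 genes, again with a lone uninjured library whose spread is taken from the other groups. Contralateral values of Mmp2, Mmp3, Mmp14 and Mmp19 lay below both uninjured libraries, a pattern seen in that direction in 16.6% of all genes, and in 18.9% in the other direction.

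Between the uninjured libraries, 9 of the 10 members were at least 2-fold higher in replicate 1, with Mmp15 the exception, against 11.2% of all genes tested. The numbers in the sample titles fall in 3 series, which no label calls a batch. One series holds the 3 contralateral libraries with tenotomy replicate 1, another joins uninjured replicate 1 to tenotomy replicate 2, and uninjured replicate 2 is alone. Within the series of the contralateral libraries, the log2 CPM of tenotomy replicate 1 minus the contralateral mean was 8.27 for Mmp13, 4.97 for Mmp3, 3.90 for Mmp14, 2.90 for Mmp2 and -0.21 for Mmp15. Within the series of uninjured replicate 1, tenotomy replicate 2 minus uninjured replicate 1 was 0.43 for Mmp13, -0.07 for Mmp3, 0.25 for Mmp14, 0.07 for Mmp2 and -0.42 for Mmp11. Tenotomy replicate 1 was above the contralateral mean of its own series in every member but Mmp15. In the other series, no member differed by more than 0.43 between the libraries. Each of these differences rests on 1 tenotomy library, so no spread can be given, and an effect of the series was not tested.

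Levels of different genes can be compared only per length, so the make-up of the family was taken from the deposited TPM, which are corrected for the effective length of each transcript. The summed TPM of all 23 family genes was 1.78, 1.73 and 1.24 in the contralateral, 11.8 and 13.1 in the tenotomy and 12.8 and 2.02 in the uninjured libraries. These sums lack the scaling between libraries used for CPM, while shares within a library do not depend on it. Mmp2 held the largest share in all 7 libraries, at 50.3 ± 2.01% (SD, n = 3) in the contralateral and 45.9 ± 0.412% (SD, n = 2) in the tenotomy group, and at 47.9 and 51.8% in the uninjured libraries. Mmp14 was next in all 7 libraries, with 10.2 ± 0.753% in the contralateral group, 19.7 ± 0.800% in the tenotomy group, and 18.8 and 12.7% in the uninjured libraries.

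The places below them differed. Mmp13 was the third by TPM in both tenotomy libraries and uninjured replicate 1, with 13.7, 14.1 and 11.5% of the family's TPM, and the last of the 10 members in the contralateral libraries and uninjured replicate 2, with at most 0.368%. Mmp3 followed it at 6.24, 6.34 and 7.36% in those 3 libraries and held 1.04 to 1.57% in the other 4. Mmp15 moved the other way in share, from 5.26 ± 1.34% (SD, n = 3) in the contralateral group to 0.596 ± 0.0698% (SD, n = 2) at the tenotomy site, while its CPM stayed within the contralateral range. The share of Mmp11 was 5.13 ± 1.76% (SD, n = 3) in the contralateral and 1.03 ± 0.119% (SD, n = 2) in the tenotomy group, with a higher CPM in the latter. From protein-coding transcripts only, its share was 3.06 ± 0.441% and 0.828 ± 0.0363%. A transcript of 335 bases annotated for nonsense-mediated decay held 0.0545 and 0.0726 TPM of Mmp11 in contralateral replicates 1 and 2 on 1.07 and 1.93 estimated counts.

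**Figure D4:**
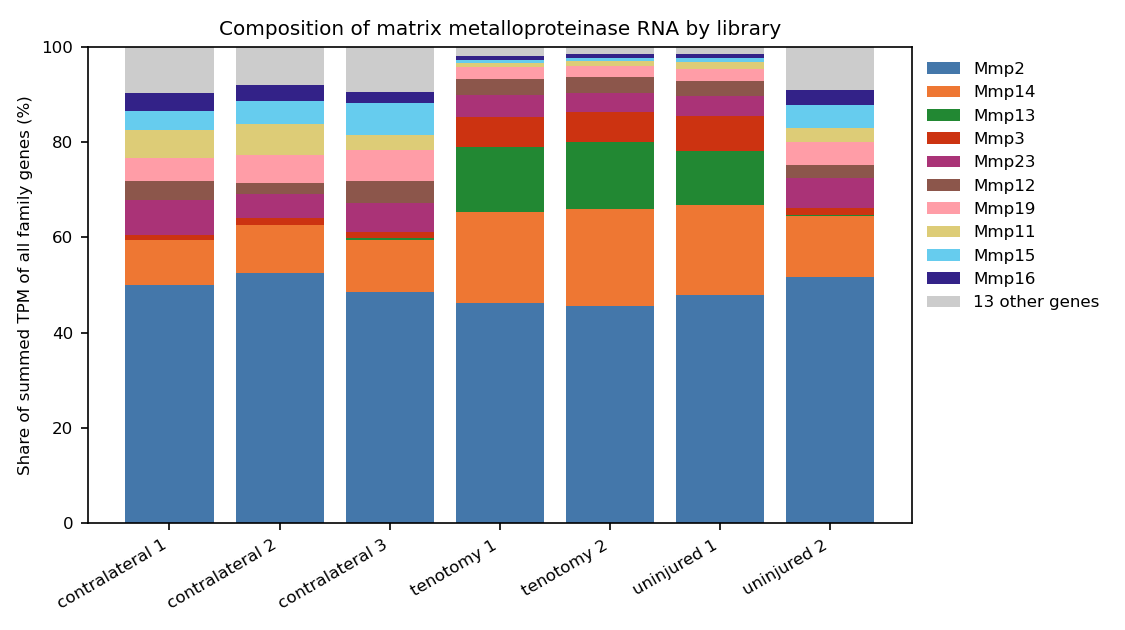
Share of each gene in the summed TPM of the family (y axis, percent) in each of the 7 libraries (x axis). Mmp13 makes up 11.5 to 14.1% in the tenotomy libraries and uninjured replicate 1 and at most 0.368% in the other 4 libraries.

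The other 13 genes of the family were measured in the same tables. Mmp1b, Mmp7 and Mmp8 had 0 counts in every library, where 3 counts would be 0.0816 to 0.112 CPM, so a level below that would not have been detectable. In all, 9 of the 13 had at most 10 counts in every library, and only Mmp9, Mmp17 and Mmp28 could be tested. Mmp9, gelatinase B, known from neutrophils, macrophages and osteoclasts, held 4, 4 and 3 counts in the contralateral, 35 and 27 in the tenotomy and 22 and 5 in the uninjured libraries. Its log2 difference of tenotomy minus contralateral was 2.94 (SE 0.59, edgeR adjusted p = 0.0167), a call that length-scaled TPM in place of counts ended. Mmp9 had fewer than 10 counts in every contralateral library and in uninjured replicate 2. It thus passed the filter on low counts only through the libraries where it was high. Mmp17 and Mmp28 differed by 1.22 (adjusted p = 0.0816) and -0.39 (adjusted p = 0.375) in the edgeR fit.

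Of 6 listed inhibitors, 5 were tested, 3 rose and 1 fell at the tenotomy site against the contralateral limb in the edgeR fit, in which 13.6% of all genes were called higher and 15.4% lower. The counts of the lists and markers that follow stand beside those same shares. The lists were chosen with earlier results of these data known, so their counts and p-values are no independent evidence. Timp1, a secreted inhibitor, was at 0.225, 0.370 and 0.309 CPM in the contralateral, 5.96 and 4.73 CPM in the tenotomy and 3.52 and 0.619 CPM in the uninjured libraries. Its log2 difference was 4.11 (SE 0.63, edgeR adjusted p = 0.0167). Timp2, which takes part in the activation of the Mmp2 proenzyme by Mmp14, rose by 1.60 (SE 0.33, edgeR adjusted p = 0.0171), from 30.8 to 45.1 CPM in the contralateral to 114 CPM in both tenotomy libraries. Timp4 lay at 4.35 to 5.62 CPM in the contralateral and at 0.707 and 0.633 CPM in the tenotomy libraries, and fell by 2.87 (SE 0.71, edgeR adjusted p = 0.0238). Timp3, which binds to the matrix, did not pass the test (-0.45, SE 0.24, edgeR adjusted p = 0.195), with 56.1 to 80.8 CPM in the contralateral and 49.2 and 50.4 CPM in the tenotomy libraries.

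Reck, a membrane-anchored inhibitor of metalloproteinases, rose by 0.92 (SE 0.14, edgeR adjusted p = 0.0167). Its level was 3.07, 3.02 and 2.72 CPM in the contralateral and 5.11 and 6.00 CPM in the tenotomy libraries. Reck was near the tenotomy level in both uninjured libraries, at 6.07 and 5.71 CPM. The summed TPM of the family divided by that of the 4 Timp genes was 0.278, 0.341 and 0.336 in the contralateral, 1.54 and 1.56 in the tenotomy and 1.56 and 0.364 in the uninjured libraries. That ratio is of RNA, was not tested and says nothing of protein or activity.

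**Figure D5:**
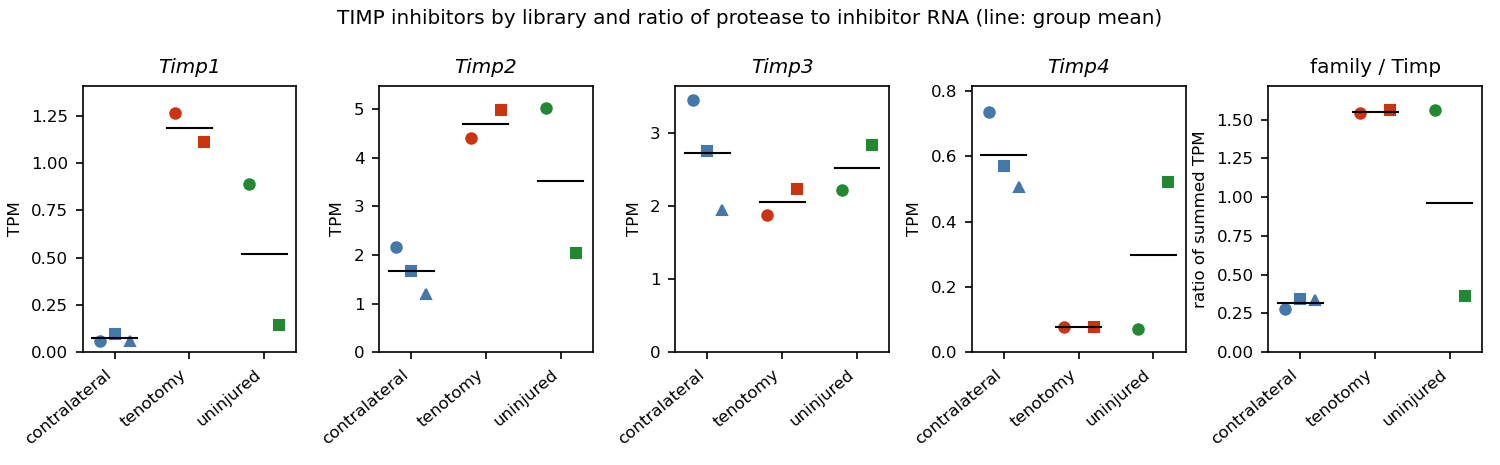
Deposited TPM of Timp1, Timp2, Timp3 and Timp4 (y axes, which differ between panels) by group (x axis), and in the last panel the summed TPM of the protease family divided by that of the 4 Timp genes, with 1 point per library and a line at the group mean. The ratio lies at 1.54 to 1.56 in the tenotomy libraries and uninjured replicate 1 and at 0.278 to 0.364 in the other 4 libraries.

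Among 12 listed genes of proenzyme activation, which covers furin-type convertases and the plasminogen system, 10 were tested, 4 rose and 2 fell at the tenotomy site, the latter a share near the 15.4% of all genes called lower. Plaur, the urokinase receptor, rose by 1.62 (SE 0.26) and the convertase Pcsk5 by 1.61 (SE 0.31), both with an edgeR adjusted p of 0.0167. The convertase Pcsk6 fell by 0.88 (SE 0.21, edgeR adjusted p = 0.0220) and Bsg, an inducer of metalloproteinases, fell by 0.72 (SE 0.21, edgeR adjusted p = 0.0383), and neither call was kept with length-scaled TPM.

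Of 7 genes of collagen receptors and uptake, all were tested, 6 rose and 0 fell. Ctsk, the collagen-cutting cathepsin K, was at 4.05, 3.16 and 2.54 CPM in the contralateral, 25.4 and 26.0 CPM in the tenotomy and 25.0 and 4.16 CPM in the uninjured libraries. It rose by 2.99 (SE 0.62, edgeR adjusted p = 0.0167). Mrc2, a receptor that takes up collagen fragments, rose by 2.06 (SE 0.33, edgeR adjusted p = 0.0167) and Ctsb by 1.27 (SE 0.29, edgeR adjusted p = 0.0193).

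Of 12 regulators of the AP-1, ETS and Runx families, all were tested, 7 rose and 0 fell at the tenotomy site. The AP-1 subunit Fosb rose by 2.83 (SE 0.50), Fos by 2.60 (SE 0.32), both with an edgeR adjusted p of 0.0167, and Junb by 1.88 (SE 0.47, edgeR adjusted p = 0.0236). Fos was at 0.937, 0.968 and 0.495 CPM in the contralateral, 5.17 and 4.50 CPM in the tenotomy and 2.62 and 1.41 CPM in the uninjured libraries. Jun, at 8.23 to 9.30 CPM outside uninjured replicate 2 (7.81 CPM), did not pass the test (-0.02, SE 0.13, edgeR adjusted p = 0.916).

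Of 12 listed substrates, all were tested, 11 rose and 0 fell. Col2a1, the collagen of cartilage, rose by 7.98 (SE 0.94), and Acan, the cartilage proteoglycan aggrecan, by 6.61 (SE 1.22), both with an edgeR adjusted p of 0.0167. Fn1, fibronectin, rose by 3.52 (SE 0.73, edgeR adjusted p = 0.0171). Dcn, decorin, did not pass the test (0.32, SE 0.25, edgeR adjusted p = 0.371). The median log2 difference was 2.37 over the substrates, 1.01 over the receptors and uptake genes, 0.92 over the inhibitors, 0.63 over the regulators and 0.52 over the activation genes, against 0.00 over all genes tested. In the other 2 comparisons 0 genes of these lists were called. Every call named for these lists and for Mmp9 was lost when any contralateral or tenotomy library was left out.

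Markers of some other cell types also differed between the tenotomy and contralateral groups, in both directions. The summed level of 8 macrophage and leukocyte markers was 22.6 to 28.8 CPM in the contralateral, 86.2 and 85.5 CPM in the tenotomy and 82.1 and 29.5 CPM in the uninjured libraries, and 8 of the 8 were called higher at the tenotomy site. The 8 muscle markers were all called lower there. The summed level of 6 cartilage markers was 3.00 to 3.76 CPM in the contralateral, 223 and 227 CPM in the tenotomy and 67.6 and 4.82 CPM in the uninjured libraries, and all 5 tested were called higher, while Matn1 had at most 3 counts in any library. Cnmd, with fewer than 10 counts in every contralateral library, passed the filter on low counts only through the libraries where it was high. Of the 6 proliferation genes, 5 were tested and 4 were called higher. Cdk1, Ccnb1 and Bub1 also had fewer than 10 counts in every contralateral library. The part of these cell types in the members' differences was not tested.

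Tendon and fibroblast markers summed to 164 to 267 CPM in the contralateral, 342 and 338 CPM in the tenotomy and 322 and 251 CPM in the uninjured libraries, with 4 of 7 called higher at the tenotomy site. Tnmd, a tendon marker, was detected in all 7 libraries, at 5.41 to 28.5 CPM. The 6 neutrophil markers summed to at most 1.11 CPM in any library, and Ngp, Elane and Camp had at most 3 counts in each. The 6 osteoclast markers summed to 2.21 to 5.03 CPM over all libraries, Oscar and Dcstamp had at most 3 counts in each, and 1 of the 3 tested was called higher. Of the 3 tested, 2 had a log2 difference above 0. Within the sum, Acp5 lay at 1.57 to 3.30 CPM, with overlapping groups. Atp6v0d2 was at 0.0750 to 0.114 CPM in the contralateral, 1.61 and 1.73 CPM in the tenotomy and 1.29 and 0.103 CPM in the uninjured libraries. With 2, 4 and 3 contralateral counts, it passed the filter on low counts only through the libraries where it was high. Endothelial markers had 1 of 6 called lower and adipose markers 2 of 5, beside 15.4% of all genes.

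Genes of the family and genes with placeholder symbols were left out of a search for similar genes. Among the rest, the genes most like Mmp13, Mmp14 and Mmp15 were sought over the 7 libraries. Likeness was the root mean square difference of log2 CPM after each gene was set to a mean of 0. For Mmp13 the nearest were Tnn (0.83), Acan (1.03) and C1qtnf3 (1.04). For Mmp14 they were Itgax (0.20), Cdh11 (0.22) and Lum (0.24). Mmp15, the member with the smallest difference between the tenotomy and contralateral groups, was nearest to Mettl1 (0.06), Ldah (0.08) and Psmd9 (0.08). All these values come from the same 7 libraries and share their depth and their split.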

How the data were processed

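RNA of 7 mouse hindlimb tendon libraries was made into sequencing libraries with a TruSeq kit, per the labels' protocols. The submitters' processing notes name kallisto, FastQC 0.11.4 and the build GRCh38, a human build, although the transcript IDs in the files are those of mouse. The authors deposited estimated counts, not normalized, and TPM, scaled by effective length, for 103639 transcripts per library. Strand and selection steps are not given in the sources used here.

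Transcript IDs, without version, were matched to GENCODE M21 (GRCm38): 101510 matched, 57625 with the same version, and 2129 stayed single features. Estimated counts were summed per gene (44818 features, 42689 genes) and rounded. Groups came from the condition label and replicate numbers from accession order. edgeR 4.0.16 (R 4.3.3) kept 16028 genes (filterByExpr, minimum count 10), scaled by TMM and fitted all 7 libraries with 3 group means. The quasi-likelihood test was adjusted by Benjamini-Hochberg at 0.05, and log2 CPM used a prior count of 2. That test gives no SE. Each SE printed is the absolute log2 difference divided by the square root of the test's F statistic, and is approximate where counts are few. Rate ratios have exact Clopper-Pearson 95% intervals, which cover counting error only. The scripts were tested on simulated data.

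The members and lists were chosen with earlier results of these data known. Named genes were all family genes and the 4 Timp genes. Of each list, up to 3 called genes in each direction with the largest change were named. The 3 genes most like Mmp13, Mmp14 and Mmp15 were also named. Jun, Dcn, Acp5, Atp6v0d2 and the genes of the closing observations were named after their values were seen. Alternatives were other scalings, DESeq2 1.42.0, no filter on low counts, fitting only the groups compared, length-scaled TPM, the title-number series as a covariate, removal of the 5 features with the most counts, and leaving out each library. Protein sequences were not analysed here. A gene of the proenzyme activation list is not reported here.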

Additional observations from a re-analysis of the deposited data

How the results depend on the processing

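No paired analysis was possible because the labels give no replicate numbers and do not say which limbs came from the same mouse. At the tenotomy site against the contralateral limb 4643 genes were called, in a separate fit of only these groups 7385, and with a library left out 0 to 7336. The members called (8) ranged from 0 to 9 and the listed genes called (34) from 0 to 38 with a library left out. The 0 came with any contralateral or tenotomy library left out. The cause was not tested.

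Against uninjured mice, the tenotomy site had 0 genes called, but 145 with DESeq2 (5 higher, 140 lower), 15 without the filter on low counts, 4 with a covariate for the number series of the sample titles and 0 to 4275 with a library left out. Listed genes called were 2, 1 and 1 under those 3 settings and 0 to 29 with a library left out, and members 0 to 9. For the contralateral limb against uninjured mice, genes called were 223 with DESeq2, 337 without the filter, 2466 with the covariate and 0 to 5393 with a library left out. Members called were 4, 4 and 8 under those settings and 0 to 9 with a library left out, and listed genes 13, 13 and 21, and 0 to 35. The highest counts came without uninjured replicate 1 at the tenotomy site and without replicate 2 in the contralateral comparison, and the cause was not tested. With the covariate, uninjured replicate 2 was alone in its number series, so the uninjured group then rested on replicate 1 only. That setting is thus close to leaving replicate 2 out.

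Upper quartile scaling moved the median of all genes by 0.11 at the tenotomy site. Member differences kept their sign in 158 of 160 values against the contralateral limb (the others were of Mmp15). Length-scaled TPM gave log2 differences of 3.00 for Mmp12, 0.70 for Mmp11 and 1.18 for Mmp16, and ended, among others, the calls of Mmp9, Pcsk6, Bsg and Runx2. The share of Mmp2 was 56.7, 48.1 and 53.1% in contralateral, tenotomy and uninjured libraries from protein-coding transcripts only, and 54.4, 52.0 and 54.65% from counts. Mmp13 took 14.5% at the tenotomy site from protein-coding transcripts, and Mmp14 took 11.5 and 20.6% in contralateral and tenotomy libraries, or 9.28 and 18.8% from counts. Intervals of Mmp13 are limited by its 4 contralateral counts.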

Other observations

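Uninjured replicate 1 was close to the tenotomy libraries for the proteases but not for every cartilage gene. Its Mmp13 level was 23.03 CPM against 30.2 and 31.1 CPM in the tenotomy libraries. Col2a1 was at 16.6 CPM there against 126 and 125 CPM, and Acan was at 45.9 CPM against 80.8 and 86.1 CPM. Col9a1, another cartilage collagen, was at 0.791 CPM against 6.96 and 6.83 CPM, and Cnmd, chondromodulin, at 0.108 CPM against 1.69 and 1.57 CPM, beside 0.0375 to 0.0928 CPM in the contralateral libraries. These genes were picked after their values were seen, and 1 library gives no test.

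Some substrates did not follow the split of the uninjured libraries seen in the proteases. Col1a1, the main collagen of tendon, was at 478, 466 and 373 CPM in the contralateral libraries, 2565 and 2583 CPM at the tenotomy site, and 2357 and 2214 CPM in the uninjured libraries. Col1a2, its partner chain, was at 337 to 469 CPM in the contralateral, 1852 CPM in both tenotomy and 1711 and 1489 CPM in the uninjured libraries. Col3a1, by contrast, was at 170 to 204 CPM in the contralateral, 2011 and 1999 CPM in the tenotomy and 1808 and 383.7 CPM in the uninjured libraries. In uninjured replicate 2, collagen I RNA was thus near the tenotomy level while Mmp13 had 2 counts and Mmp14 was at 4.23 CPM. Between the contralateral and uninjured groups, edgeR's fit of all 7 libraries called none of Col1a1 (log2 difference of contralateral minus uninjured -2.38, adjusted p = 0.128), Col1a2 (-1.97, adjusted p = 0.150) and Col3a1 (-2.52, adjusted p = 0.215). All 3 were called with DESeq2 and without the filter on low counts. With the covariate for title numbers, or with an uninjured library left out, the uninjured group rested on a lone library. The sign was the same in all 16 alternatives. Over these alternatives the adjusted p of Col1a1 ran from 1.206e-27 to 0.451.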
